A study of Mus musculus with 56 samples.

Results

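The genes of the proteasome were followed across single cells (SCs) of primary mouse pituitary cultures. They were chosen by name alone, as the protein-coding genes whose symbol starts with *Psma*, *Psmb*, *Psmc* or *Psmd* and a digit, which gave 40 of the 47069 gene identifiers in the table. Cells came from randomly cycling C57BL/6 females of 10 to 12 weeks, and 5 pituitaries were pooled to make a sample. After 4 days of culture they were stabilized with RNA-Best, which keeps the RNA inside intact cells until the assay. The labels name no agent or genotype that differed between wells, so all wells formed 1 group. Each cell was lysed in its own chamber of a Fluidigm C1 integrated fluidic circuit, full-length cDNA was made with SMART-Seq v4, and libraries are named here by their plate well.

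The proteasome is the protease that breaks down proteins tagged with ubiquitin. Its core particle is a barrel of stacked alpha and beta rings, in which the alpha subunits (*Psma*) gate the entry and some of the beta subunits (*Psmb*) cut the protein chain inside. The regulatory particle caps the barrel, with a ring of ATPases (*Psmc*) that unfold the substrate and non-ATPase subunits (*Psmd*) that bind ubiquitin, remove it and hold the cap together. In cells exposed to interferon, and all the time in many immune cells, the cutting subunits *Psmb5*, *Psmb6* and *Psmb7* can be replaced by *Psmb8*, *Psmb9* and *Psmb10*, which makes the immunoproteasome. A cell needs every constitutive subunit, and secretory cells such as those of the pituitary send misfolded hormone precursors to this protease.

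Of the 56 wells, 46 had at least 100000 counts on genes and were used. Their gene counts ranged from 111195 in E7 to 12563300 in H2 with a median of 1192620, and 25 wells had 1000000 or more. The values are counts of reads without molecular identifiers, scaled to a gene total of 1000000 in each well (CPM). *Prl*, *Gh* and *Pomc*, the hormones of lactotropes, somatotropes and corticotropes, had counts in 46 of 46 wells and together took from 0.759% to 81.0% of gene counts. Of the 29 wells in plate columns 1 to 3 and 7 to 9 and the 17 in columns 4 to 6 and 10 to 12, 15 and 10 had 1000000 gene counts or more, and results are given for the column sets apart where they differed. Wells C10 and C11 resembled each other, with a median absolute log2 ratio of 0.13 over 31 subunits against a median of 1.99 for other pairs of wells, and F12 was at 0.50 from C10 and 0.44 from C11. A3 and A8 were at 0.29, the lowest of the other pairs. Leaving out C11, C11 and F12, or A8 moved none of the 8 results that were recomputed (members detected, also at equal depth and against depth, evenness, summed level, pairwise correlation, cells with an immunoproteasome subunit and its share) by more than the spread between cells or the interval of the share. That limit is wide for leaving out so few wells, so staying within it does not show that these wells are without effect. The median evenness went from 0.823 to 0.811 without C11 and to 0.834 without A8. Because the cells are 1 sample, no test was made. Shares of cells carry exact Clopper-Pearson 95% intervals, and for a share of 0 the limit of 3 counts of the total is given, both of which cover counting error only.

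By role, the 40 genes held 7 subunits of the alpha ring, 4 structural and 3 catalytic subunits of the beta ring, 6 ATPases and 11 non-ATPase subunits, which are called the 31 constitutive subunits here. The other 9 were the 3 immunoproteasome subunits, *Psma8* of the testis form, *Psmb11* of the thymus form, *Psmd5*, *Psmd9* and *Psmd10*, which are chaperones of cap assembly, and *Psmc3ip*, a protein of meiotic recombination that shares only the name.

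All of the 31 constitutive subunits had 1 count or more in at least 23 of the 46 wells, where the same held for 26.4% of all 21637 protein-coding genes. Of the 31, 24 had a count in every well (background 3.88%), 30 were at 10 CPM or more in at least 23 wells (background 10.7%), and 20 were at 100 CPM or more in at least 23 wells (background 2.55%). These genes were also among the more abundant ones. Constitutive subunits had mean levels from 53.8 to 878 CPM, and the 2218 protein-coding genes in that range were detected in a median of 44 wells, against 46 wells for the subunits. The gap was wider at 10 CPM, with medians of 33 wells for the genes in that range and 42 wells for the subunits. The range was set on the mean, and the median CPM of the genes in it had a median of 33.1, against 137 for the subunits.

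**Figure D1:**
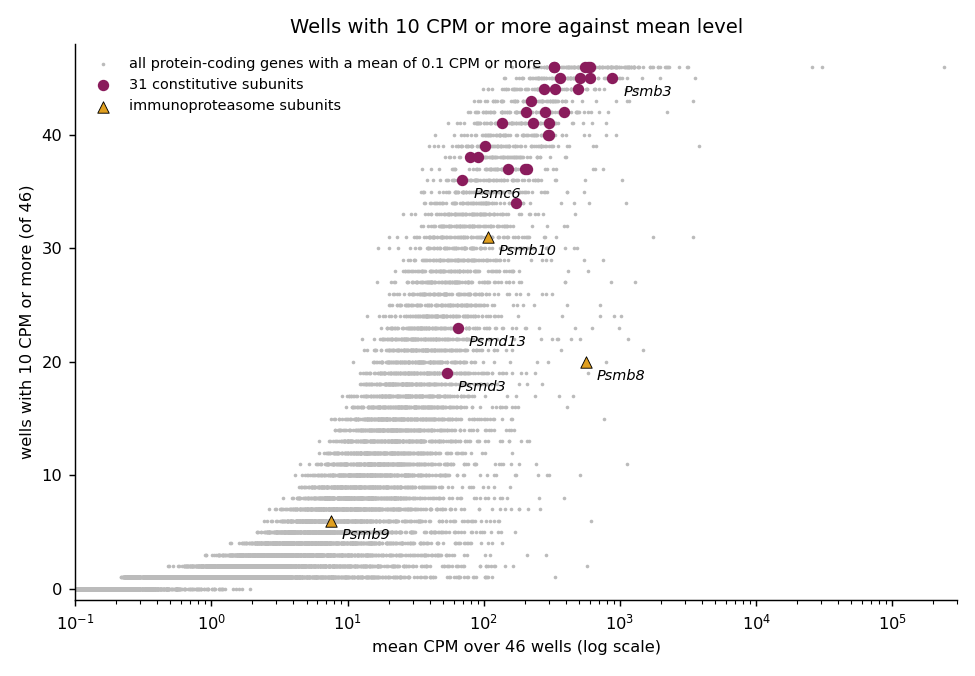
Number of wells (of 46) with 10 CPM or more against the mean CPM over wells on a log scale, with 1 point per protein-coding gene. Most of the 31 constitutive subunits sit in the upper part of the cloud, while *Psmb8*, with a mean of 563 CPM, lies lower at 20 wells, and 1 well carries 86.5% of its summed CPM.

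The number of members detected at 1 count or more varied little between cells. A median of 36 of 40 members had 1 count or more (SD 1.72, n = 46 cells), from 32 in A10 to 39 in D2. All 31 constitutive subunits were detected in 33 wells, 30 of them in 8 wells and 29 in 5 wells. Only 18 of 1426 pairs of a constitutive subunit and a well (1.26%) held less than 1 count. The limit of 1 count is low for deep wells, and at 10 CPM or more the cells spread further. At that limit the median was 31 members (SD 5.45), from 11 in A1 to 38 in F6. For the 31 constitutive subunits the median was 29 (SD 4.47), with 11 in A1 as the lowest. The wells with 100000 to 500000 gene counts had a median of 35 members and those with 2000000 or more had 36. The Spearman rho of members detected, taken from unscaled counts, with gene counts was 0.11 over the 46 wells. At equal depth the cells also spread further than with all counts. When each well was thinned to 100000 gene counts, the median was 32 members (SD 4.04) with a range from 18 in A1 to 38 in F6, where a draw of the same size from the mean profile of all wells gives 36.8. Thinned members did not increase with the depth of the well they were drawn from (rho -0.30).

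**Figure D2:**
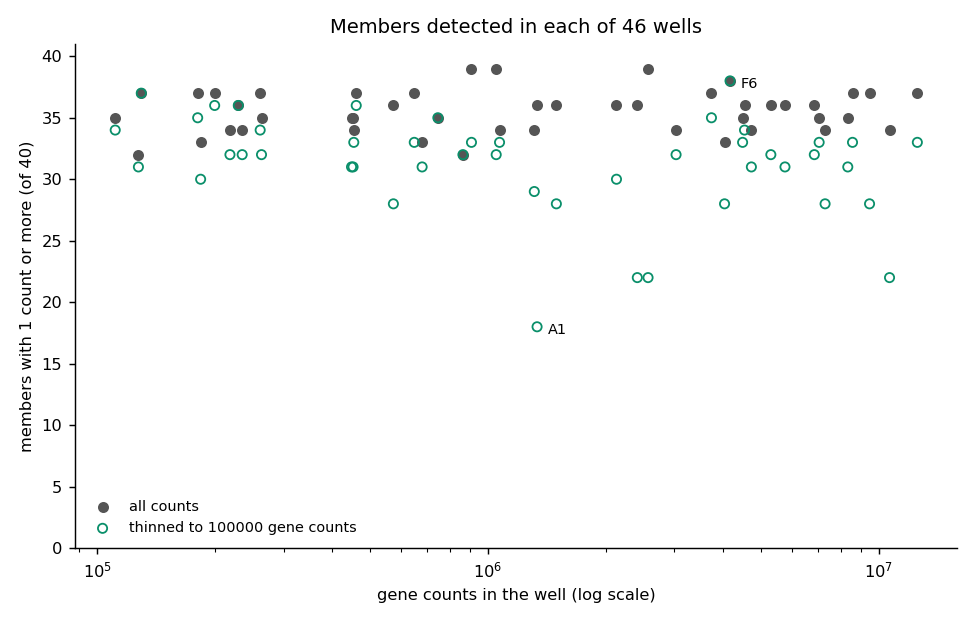
Number of members with 1 count or more (of 40) against gene counts in each of the 46 wells, on a log scale, with all counts (filled) and after thinning to 100000 gene counts (open). With all counts the wells lie between 32 and 39 members at every depth, and after thinning A1 falls to 18.

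The alpha ring was read in every well. *Psma7* had the highest level per length of the ring, with a median of 412 CPM, a lowest value of 3.97 CPM in H4 and a highest of 1712 CPM in B12. *Psma4* had the lowest, with a median of 70.8 CPM (2.16 CPM in F11 to 827 CPM in H4). H4 was thus the lowest well for *Psma7* and the highest for *Psma4*. Per kilobase of the principal coding transcript, the medians were 451 CPM for *Psma7* and 60.8 CPM for *Psma4*. *Psma2* varied least of all constitutive subunits, with an SD of 1.46 on the log2(CPM + 1) scale, while the median over the 31 subunits was 2.04. Protein-coding genes in the same range of mean level, which were not matched on the median, had a median SD of 2.48.

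The beta ring held the most abundant subunits. *Psmb3*, a structural subunit, had a median of 462 CPM, from 9.98 CPM in A1 to 13033 CPM in A9, which per kilobase was the highest median of all members at 604 CPM. *Psmb2*, also structural, followed with 581 CPM per kilobase and *Psmb6* with 578 CPM per kilobase. *Psmb1* and *Psmb4*, the remaining structural subunits, had medians of 208 and 155 CPM per kilobase. The ring's lowest level per length was that of the catalytic *Psmb7*, at 47.8 CPM per kilobase.

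The catalytic subunits differ in the residues after which they cut, *Psmb5* after hydrophobic, *Psmb6* after acidic and *Psmb7* after basic residues. *Psmb5* (chr14:54614119-54618022, minus strand, GRCm38) had a median of 134 CPM, with 1.61 CPM in H4 as the lowest value and 4607 CPM in D3 as the highest. *Psmb6* (chr11:70525367-70527858, plus strand) had a median of 461 CPM, from 0.281 CPM in H9 to 2554 CPM in A1. *Psmb7* (chr2:38588036-38644087, minus strand) had a median of 55.5 CPM, from under 1 count in A10 and E8 to 495 CPM in B2. The wells with the lowest and the highest values differed between the 3 genes. In H9, which had 10664300 gene counts, *Psmb6* was read 3 times.

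Promoters were examined because proteasome genes are known to be raised together by *Nfe2l1*, which acts at antioxidant response elements, and immunoproteasome genes by interferon factors. Sequences from 250 bases before to 50 bases after the transcription start (RefSeq, GRCm38.p6) were present for 33 of the 40 members. The letters TGACNNNGC on either strand were found for 5 of the 33 (*Psmb5*, *Psmb6*, *Psmc6*, *Psmd9* and *Psmd12*), or 15.2%, and for 14.0% of all 27025 genes with a promoter sequence. The gamma-activated site TTCNNNGAA was found for *Psmb8* and *Psmd2* (6.06%, against 9.55% of all genes) and GAAANNGAA, the core of the interferon-stimulated response element, for *Psmb3*, *Psmb4*, *Psmc2*, *Psmd4* and *Psmd9* (15.2%, against 9.76%). No matches to different motifs overlapped. The stretches upstream of *Psmb5* and *Psmb6*, a pair of constitutive catalytic genes, are shown with the match to the antioxidant response element in capitals, and 29 bases around the gamma-activated site of *Psmb8*, an immunoproteasome gene, with that site in capitals. They are given 5′ to 3′ on the strand of the gene. The *Psmb5* stretch is chr14:54618023-54618245 (minus), the *Psmb6* stretch is chr11:70525107-70525356 (plus), and neither overlaps an annotated exon. The *Psmb8* stretch is chr17:34198088-34198116 (plus) and lies within an exon of an alternative *Psmb8* transcript in GENCODE M21. A match is a description of the letters and not a bound site.
Psmb5: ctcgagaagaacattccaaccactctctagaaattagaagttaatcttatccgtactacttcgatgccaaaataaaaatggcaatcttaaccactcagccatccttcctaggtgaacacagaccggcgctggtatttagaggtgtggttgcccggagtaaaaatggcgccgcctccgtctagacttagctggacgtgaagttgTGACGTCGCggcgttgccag
Psmb6: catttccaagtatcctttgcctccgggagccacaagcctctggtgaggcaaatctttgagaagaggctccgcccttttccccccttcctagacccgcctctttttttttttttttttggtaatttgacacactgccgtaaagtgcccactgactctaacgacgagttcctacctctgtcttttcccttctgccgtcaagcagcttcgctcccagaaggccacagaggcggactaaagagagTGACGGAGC
Psmb8: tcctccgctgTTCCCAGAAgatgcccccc

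The ATPase ring was lower per length than the core. *Psmc2* had its highest median level, 281 CPM or 157 CPM per kilobase, with a range from 4.59 CPM in H9 to 2606 CPM in D2. *Psmc6* had its lowest, 31.0 CPM or 13.9 CPM per kilobase, from under 1 count in A3 to 886 CPM in G2. *Psmc3* and *Psmc5* were also missing in 1 well each, *Psmc3* in D7 and *Psmc5* in H4, where 4033130 gene counts had been read. *Psmc1* and *Psmc4* were detected in all 46 wells.

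The non-ATPase subunits had the widest spread of levels. *Psmd8*, part of the lid that sits over the ATPases, had the highest median level per length, 127 CPM per kilobase. It ranged from 0.469 CPM in H9 through a median of 196 CPM to 3826 CPM in A1. *Psmd3*, another lid subunit, had the lowest level of all constitutive subunits, with a median of 7.10 CPM or 3.30 CPM per kilobase, and was detected in 40 of 46 wells (87.0%, 95% interval 73.7 to 95.1%). It reached 998 CPM in B12, which was 141-fold its own median. *Psmd13*, a lid subunit, was detected in 41 wells and had the largest SD of the constitutive subunits, 2.79 on the log2(CPM + 1) scale. *Psmd14*, the enzyme that removes ubiquitin from the substrate, had a median of 64.7 CPM and 5596 CPM in A8. *Psmd4*, a ubiquitin receptor, ranged from 0.868 CPM in H11 to 2116 CPM in B12. The median subunit of the regulatory particle was at 52.0 CPM per kilobase and that of the core at 168 CPM per kilobase. Of the low-level subunits, *Psmd13* shares bases with *Sirt3* in the annotation, and reads of overlapping genes cannot be told apart where strand was not used.

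**Figure D3:**
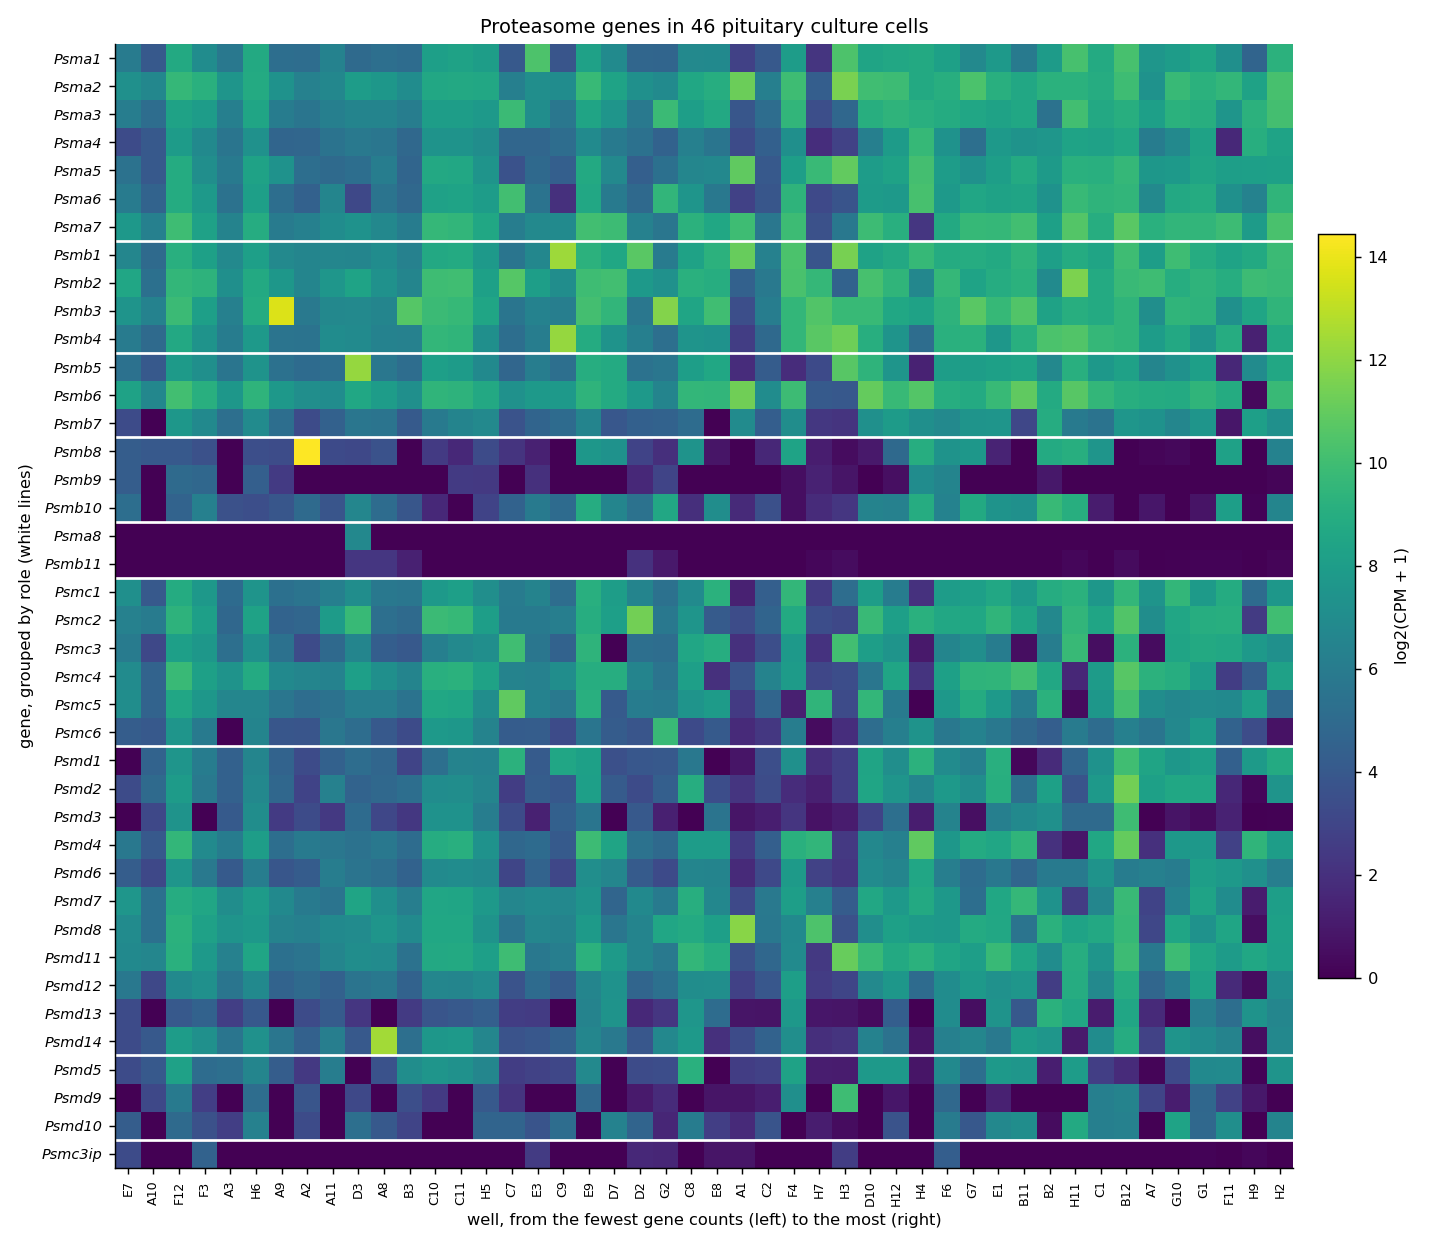
log2(CPM + 1) of the 40 members (rows, grouped by role) in the 46 wells (columns, ordered by gene counts). Dark bands mark *Psmb9*, *Psma8*, *Psmb11* and *Psmc3ip*, and single bright cells mark *Psmb3* in A9, *Psmd14* in A8, *Psmb5* in D3 and *Psmb8* in A2.

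Summed over the 40 members, the proteasome took a median of 9449 CPM, or 0.945% of gene counts, per cell. The sum ranged from 1059 CPM in C2 to 27390 CPM in B12 (SD 5505 CPM, n = 46). C2 was the well with the highest hormone share, 81.0%, and B12 had a hormone share of 1.29%. Over the 46 wells the Spearman rho of the sum with the hormone share was -0.33, and both are parts of the same total. It was -0.10 in plate columns 1 to 3 and 7 to 9 and -0.72 in the other columns. With *Prl*, *Gh* and *Pomc* taken out of the total, the median was 14166 CPM, C2 was at 5585 CPM and the rho was 0.13 (0.35 and -0.20 in the column sets). The core and the regulatory particle varied together, with a rho of 0.51 between their summed CPM (0.36 in plate columns 1 to 3 and 7 to 9, and 0.75 in the other columns). A10 was the lowest well for the core with 588 CPM and C2 for the cap with 396 CPM, while H3 with 14345 CPM and B12 with 16542 CPM were the highest.

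The plate columns differed in level. The median CPM of all 31 constitutive subunits was higher in columns 4 to 6 and 10 to 12 than in columns 1 to 3 and 7 to 9, where 68.9% of the 5705 protein-coding genes detected in at least 23 wells were higher. Among wells with 1000000 gene counts or more it was higher for 27 of 31. The share over all protein-coding genes is not at hand for those wells, so this count cannot be set against a background. The median cell had its median subunit at 255 CPM in the first of these sets and at 63.0 CPM in the second. Spike-in RNAs took a median of 2.06% and 7.41% of all counts in these sets, but a mean of 20.4% and 13.7%. Their part in the difference was not tested. The sets follow plate positions, were formed with earlier results of these data known, and cannot be told apart from the cells that were caught there.

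To ask whether the subunits of 1 complex are even within a cell, Pielou's evenness was calculated over the 31 constitutive subunits in CPM per kilobase. It is 1 when all subunits have the same level and 0 when a single subunit takes everything. The median cell had an evenness of 0.823 (SD 0.170, n = 46), from 0.147 in A9 to 0.934 in B12. The counts summed over all 46 wells gave 0.905, the mean CPM over wells 0.886 and the median CPM 0.857. Pooling levels out differences between cells by construction, so these higher values say nothing further about the cells. A median of 23 of 31 subunits lay within 4-fold of the cell's median subunit, from 14 in H4 to 29 in B12. The leading subunit took a median of 17.6% of the level, and it was *Psmb6* in 15 wells, *Psmb2* in 11, *Psmb3* in 10 and another subunit in the other 10.

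In 5 wells a single subunit took more than all others together (10.9% of wells, 95% interval 3.62 to 23.6%). *Psmb3* was at 13033 CPM in A9, which was 92.1% of the level of the 31 subunits there. *Psmd14* took 66.2% in A8, *Psmb3* 65.9% in B3 and 63.9% in G2, and *Psmb5* took 63.1% in D3. These wells had 218643 (A9) to 1050010 (G2) gene counts, and the leading values were, for example, 2850 counts in A9 and 1474 in A8. Without molecular identifiers the number of reads does not give the number of transcripts. Without the leading subunit, the evenness of the remaining 30 in these wells was between 0.742 in G2 and 0.881 in B3. Over all 46 wells it had a median of 0.873, from 0.450 in C9 to 0.942 in B12, a range too wide to tell wells apart. The remaining subunits summed to 1479 CPM in B3 to 4187 CPM in G2, where the same sum had a median of 7370 CPM over all 46 wells and 6276 CPM in columns 1 to 3 and 7 to 9. The 5 wells were chosen by the share of their leading subunit of the same total, so these sums and evenness values are a description. Evenness was under 0.7 in 12 wells, and in 6 of them it stayed under 0.7 without the leading subunit, at 0.450 in C9, 0.496 in A1, 0.554 in H7, 0.628 in H3, 0.646 in C7 and 0.691 in D2. In C9 *Psmb1* was at 5118 CPM and *Psmb4* at 4595 CPM.

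Among the wells used, the uneven ones were all in 1 set of plate columns. Evenness was under 0.7 in 12 of 29 wells of columns 1 to 3 and 7 to 9 (41.4%, 95% interval 23.5 to 61.1%) and in 0 of 17 wells of the other columns, which allows a share of up to 17.6%. Among wells with 1000000 gene counts or more it was under 0.7 in 4 of 15 and 0 of 10, and 0.85 or more in 6 of 15 and 4 of 10. Over all wells used, the median evenness was 0.775 and 0.873. The split depends on the depth limit. Below it, evenness was 0.0898 in B5, 0.465 in B6 and 0.586 in D12, all in columns 4 to 6 and 10 to 12. D12 had 96289 gene counts. The rho of evenness with gene counts was 0.04 over the 46 wells, 0.24 in columns 1 to 3 and 7 to 9, and -0.30 in the others. With the spike-in share of all counts the rho was -0.13, -0.40 and 0.18 in the same order, and the part of spike-in share or depth in the difference between column sets was not tested.

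**Figure D4:**
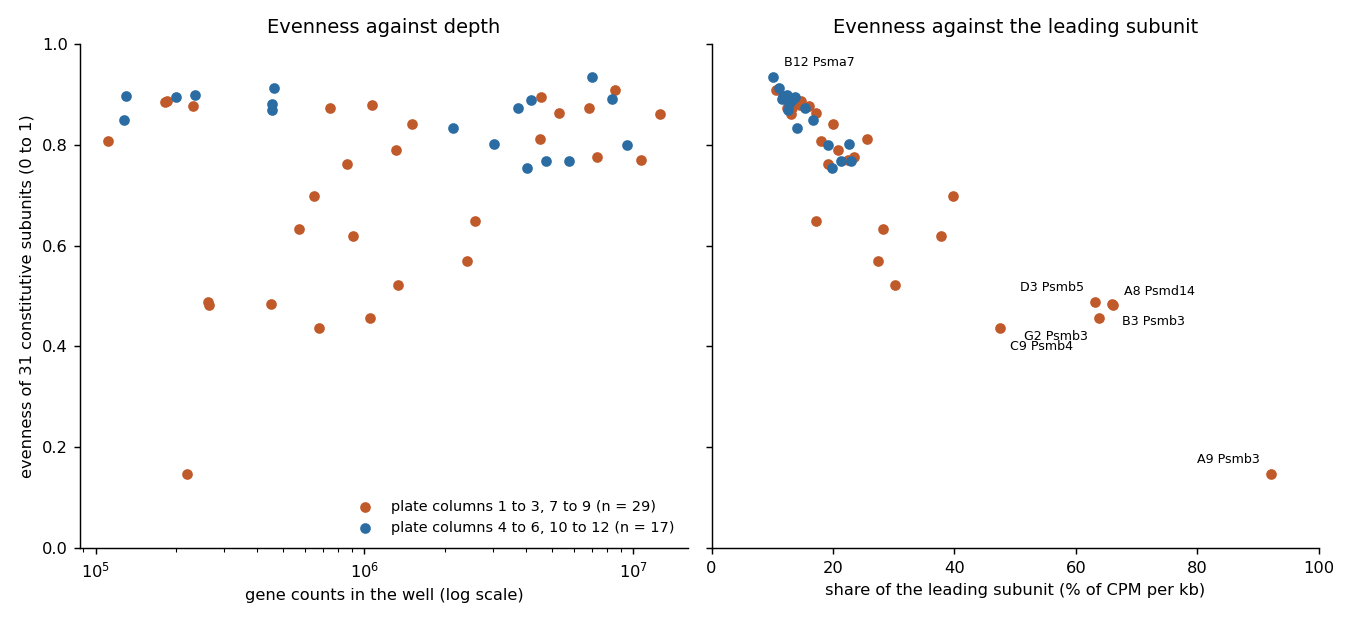
Evenness of the 31 constitutive subunits (0 to 1) against gene counts on a log scale (left) and against the share of the leading subunit in percent of CPM per kilobase (right), with 1 point per well and the plate column sets in different colours. The 12 wells under 0.7 are all in columns 1 to 3 and 7 to 9, and A9 lies at 0.147 with *Psmb3* at 92.1%.

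Low readings occurred in deep wells too. Of 775 pairs of a constitutive subunit and a well with 1000000 gene counts or more, 37 were under 1 CPM. *Psmd3* gave 9 of them and *Psmd13* gave 8. H9 gave 6, among them *Psmb6* at 0.281 CPM and *Psmd2*, a scaffold of the cap, at 0.188 CPM, although its *Psmb7* was at 289 CPM. H4 had under 1 CPM of *Psmc3*, *Psmc5*, *Psmd13* and *Psmd14* beside 1914 CPM of *Psmd4*. Over all wells used, 3.16% of pairs lay 10-fold or more above the gene's own median and 10.1% lay 10-fold or more below it. The 2071 background genes of the same range of mean level had 9.28% and 18.3%. They were matched on the mean and not on the median from which departures were taken. The median CPM of the 2218 genes in that range of mean had a median of 33.1, against 137 for the subunits. The shares are therefore set side by side and were not tested. In wells with 1000000 gene counts or more the shares were 4.13% above and 15.4% below, with 10.9% and 23.4% for the background genes, and readings 10-fold below made up 12.2% of pairs in columns 1 to 3 and 7 to 9 and 6.45% in the others. The highest value relative to the gene's own median was that of *Psmd3* in B12 (141-fold), followed by *Psmd14* in A8 (86.5-fold) and *Psmd2* in B12 (71.6-fold).

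In comparison with other complexes of many subunits, evenness within the cell was in the same range. The CCT chaperonin, which folds actin and tubulin, had a median evenness of 0.771 over 7 of its 8 genes (*Cct6a* had no coding transcript length in GENCODE M21). The COP9 signalosome, a relative of the proteasome lid, had 0.745 over 9 genes. Evenness depends on the number of genes, so these values are set side by side and their difference was not tested. Less than 1 count was found for 1.26% of pairs of a gene and a well in the proteasome, 2.17% in the chaperonin and 13.8% in the signalosome, whose genes had a lower median level (25.4 CPM per kilobase, against 95.6 for the proteasome and 55.8 for the chaperonin).

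Constitutive subunits went up and down together from cell to cell only in part. The 465 pairs had a median Pearson r of 0.34 on the log2(CPM + 1) scale over the 46 wells (SD 0.18), with 18.9% of pairs over 0.5. Pairs of protein-coding genes in the same range of mean level had a median of 0.15 with 4.51% over 0.5. These genes were matched on the mean and not on the median. Their median CPM had a median of 33.1, against 137 for the subunits, so the values are set side by side and were not tested. All points share the total of their well, and genes are not independent. Within the alpha ring the median was 0.49, within the beta ring 0.29, within the ATPase ring and the non-ATPase subunits 0.34 each, and between core and cap 0.30. The pair with the highest r was *Psma3* with *Psma6*, neighbours in the alpha family, at 0.87. The lowest was *Psmb1* with *Psmc5* at -0.23. *Psmc2* had the highest median r with the other subunits (0.48) and *Psmd8* the lowest (0.14). Within plate columns 1 to 3 and 7 to 9 the median over pairs was 0.27 and within the others 0.39, where the background medians were 0.13 and 0.15. In wells with 1000000 gene counts or more it was 0.26, with a background median of 0.14.

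Among 5669 other protein-coding genes detected in at least 23 wells, the 5 with the highest median r with the constitutive subunits were *Hprt* (0.52), a purine salvage enzyme, *Ywhaz* (0.49), an adaptor protein, *Dnm1l* (0.49), which divides mitochondria, and *Arl1* (0.49) and *Arf1* (0.49), small GTPases of the Golgi. The median over all ranked genes was 0.21.

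Immunoproteasome subunits were read in most cells at low levels. At least 1 of the 3 had 1 count or more in 45 of 46 wells (97.8%, 95% interval 88.5 to 99.9%), and B12 had none. At 10 CPM the number was 35 wells (76.1%) and at 100 CPM it was 16 wells (34.8%, 95% interval 21.4 to 50.2%). All 3 were at 10 CPM or more in 6 wells and at 100 CPM or more in H4 only. Per kilobase and summed over all counts, the 3 made up 14.2% of the catalytic beta subunits. The median of the cells' own shares was 6.74%, from 0 in B12 to 98.4% in A2, and it was 7.60% in columns 1 to 3 and 7 to 9 and 3.99% in the others. *Psmb10* had a higher median in the first set (32.4 CPM, against 12.8 CPM) and *Psmb8* in the second (10.0 CPM, against 3.49 CPM).

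*Psmb8* (chr17:34197721-34201454, plus strand), the replacement for *Psmb5*, was detected in 38 of 46 wells (82.6%, 95% interval 68.6 to 92.2%). Its median was 8.08 CPM and it ranged from 0 counts in 8 wells to 22398 CPM in A2. The A2 value was 5144 reads, from an unknown number of transcripts, and the next wells were H11 with 534 CPM, H4 with 518 CPM and B2 with 449 CPM. *Psmb8* was at 100 CPM or more in 12 wells, and 9 of these had 1000000 gene counts or more. It was above *Psmb5* per kilobase in A2, B2, F4, F11 and H4. *Psmb5* itself was low in F4, F11 and H4, with 2.58, 2.00 and 1.61 CPM. Without A2 the mean of *Psmb8* fell from 563 to 77.7 CPM and the share of the 3 subunits among the catalytic ones, from CPM averaged over cells, from 27.0% to 10.3%. In the summed counts A2 weighed less, with 12.8% without it.

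*Psmb9* (chr17:34181987-34187764, minus strand), the replacement for *Psmb6*, was detected in 18 wells (39.1%, 95% interval 25.1 to 54.6%). Its median was 0 CPM. The highest values were 130 CPM in H4, 90.3 CPM in F6 and 30.9 CPM in F12, and it exceeded *Psmb6* in none of the 46 wells (0 of 46, for which 3 counts of the total allow a share of up to 6.52%). *Psmb10* (chr8:105935735-105938444, minus strand), the replacement for *Psmb7*, was detected in 42 wells (91.3%, 95% interval 79.2 to 97.6%). Its median was 26.8 CPM, with 853 CPM in B2 as the highest value and 535 CPM in H11 and 494 CPM in H4 next. It exceeded *Psmb7* per kilobase in 16 of 46 wells, 8 of which had 1000000 gene counts or more. *Psmb7* itself was low in some of these, with 0 counts in E8, 0.844 CPM in F11 and 7.41 CPM in B11. Other wells rested on few reads, with 4 counts of *Psmb10* and 1 of *Psmb7* in E7, and 7 and 2 in A2. In B2 both were well read, with *Psmb7* at 495 CPM. In summed counts per kilobase *Psmb10* held 48.1% of its pair, *Psmb8* 25.4% and *Psmb9* 0.598%. *Psmb9* overlaps *Tap1* in the annotation, and *Psmb8* overlaps an antisense gene, so reads there cannot be told apart where strand was not used.

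**Figure D5:**
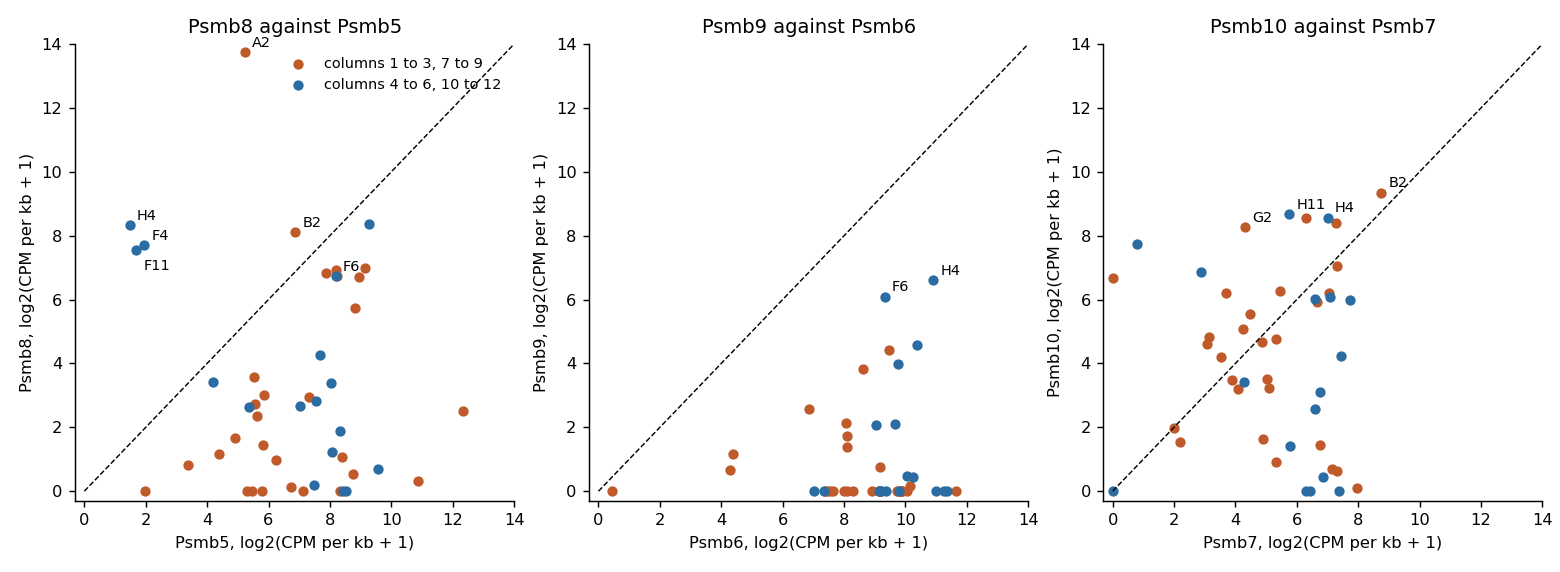
Level of each immunoproteasome subunit (vertical) against the constitutive subunit it replaces (horizontal) in the 46 wells, as log2(CPM per kilobase + 1), with the line of equal level dashed and plate column sets in different colours. *Psmb8* is above the line in 5 wells, *Psmb9* in 0 and *Psmb10* in 16.

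The 3 immunoproteasome subunits were compared with each other across cells. Of the 12 wells with *Psmb8* and the 10 with *Psmb10* at 100 CPM or more, 6 were the same, and over the 46 wells the rho of this pair was 0.42 (0.60 in the 25 wells with 1000000 gene counts or more). For *Psmb8* with *Psmb9* it was 0.26 and for *Psmb9* with *Psmb10* 0.13, where *Psmb9* had less than 1 count in 28 of the 46 wells. *Psmb9* was closest to *Tap1*, the peptide transporter encoded beside it, with a rho of 0.52. H4 was the well with the highest *Psmb9*, *Tap1* (1380 CPM), *Tap2* (779 CPM), *Irf1* (994 CPM), *Nlrc5* (1122 CPM), *H2-K1* (2524 CPM) and *Ifitm3* (21939 CPM). It was also the well with the highest summed level of the 5 endothelial markers, 8855 CPM, with 4 of 5 at 100 CPM or more and *Pecam1* at 8.93 CPM. Over the 46 wells that sum had a median of 0.691 CPM. F6, the second well for *Psmb9*, held 979 CPM of these markers with 4 of 5 at 100 CPM or more. H7 had the second highest sum, 2041 CPM with 1 of 5 at 100 CPM or more, beside 1.66 CPM of *Psmb9*, 0.829 CPM of *Tap1* and 0.415 CPM of *Irf1*. The part of endothelial cells in these values was not tested, and without F6 and H4 the share of the 3 subunits among the catalytic ones was 13.2%. A2 did not share this pattern apart from *B2m* (18614 CPM) and *Ifitm3* (18708 CPM), since *Tap1*, *Tap2* and *Irf1* were at 4.35 CPM each, which was 1 read, but its endothelial markers summed to 274 CPM, of which *Pecam1* gave 270 CPM. Of the 6 macrophage markers, *Cd68* was detected in 41 wells and *Csf1r* in 1, and their sum was at most 449 CPM, in H11.

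The genes that act on the proteasome from outside were read at different levels. Among the activators, *Psme2*, which together with *Psme1* caps immunoproteasomes, was detected in 46 wells with a median of 369 CPM, and *Psme1* in 45 with 95.7 CPM. Their rho with *Psmb8* was 0.12 for *Psme2* and 0.49 for *Psme1*. *Psme3* and *Psme4*, which activate the core in other settings, were at medians of 8.17 and 12.3 CPM, and *Psmf1*, an inhibitor, was detected in 21 wells. Of the assembly factors, *Pomp*, which matures the core, was found in 46 wells with a median of 253 CPM, while *Psmg1* to *Psmg4*, which help to build the alpha ring, were found in 27 to 41 wells with medians of 1.51 to 16.8 CPM. The small cap subunit *Sem1* was in 46 wells with 278 CPM, and the bound enzymes *Usp14* and *Uchl5*, which trim ubiquitin, were at 34.7 and 13.4 CPM. The ubiquitin receptor *Adrm1* was at 10.3 CPM. *Nfe2l1* was detected in 44 wells with a median of 15.7 CPM and *Ddi2*, the protease that activates it, in 18. The ubiquitin gene *Ubb* was in 46 wells, with a median of 1825 CPM.

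The assembly chaperones of the cap were lower than the subunits. *Psmd5* was detected in 43 wells with a median of 17.0 CPM, *Psmd10* in 35 with 12.5 CPM and *Psmd9* in 28 with 1.15 CPM. *Psmd9* reached 991 CPM in H3, and this well made up 63.1% of its summed CPM. The tissue forms and *Psmc3ip* were at or near 0. *Psma8* had 28 reads (107 CPM) in D3 and none in the other 45 wells used. *Psmb11* had a count in 10 wells with a highest value of 3.83 CPM, and *Psmc3ip* in 11 wells with a highest value of 22.1 CPM in F3.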

How the data were processed

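Libraries of 56 SCs from mouse pituitary cultures were analysed. The authors deposited 1 table of estimated counts of reads per gene and spike-in, with 1 column per well and no scaling. The submitters' processing notes name STAR 2.5.1b, featureCounts 1.5.0-p1 and mm10. The annotation release, the use of strand and the rule for shared reads were not given in the sources used here. Of the members' values above 0, 24.2% were not whole (tolerance 1e-09), so reads had been divided between features. The files name 4 pseudogene copies of members, and their reads may be split with those of *Psmb5*, *Psmb6* and *Psmb7*. Division was not limited to these genes. Of the values above 0 in the wells used, 87.0% were not whole for *Psma3* and 84.8% each for *Psma5* and *Psmb3*. For *Psmb5* it was 60.9%, for *Psmb6* 47.8% and for *Psmb7* 13.6%. The leading *Psmb3* value in A9, 2849.67 counts, was not whole either.

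Symbols, coordinates and lengths came from GENCODE M21 (GRCm38), and 46574 identifiers matched. CPM was calculated without spike-ins in wells with 100000 gene counts or more. Levels of different genes were compared per kilobase of the principal coding transcript, a choice made after the files had been seen. Fractional counts were rounded before thinning. A gene was detected at 1 count or more, and a pair was called uneven or low by the limits given with each value. Fold differences from a gene's own median, r and rho are descriptions. Members, gene lists, wells under the depth limit, plate column sets and the alternatives were chosen with earlier results of these data known. Values per cell were printed for the immunoproteasome subunits and their partners and, for each role, for the members highest and lowest per length, and other single values were chosen after they had been seen. Doublets were not called. Cells are 1 sample, the labels name no separate cultures, and intervals cover counting error only. The code was tested on simulated data. Python 3.11.15, numpy 2.4.6, pandas 2.3.3, scipy 1.17.1 and matplotlib 3.10.9 were used.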

Additional observations from a re-analysis of the deposited data

How the results depend on the processing

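No paired analysis was possible because the cells form 1 group. Of 81 alternative settings over 8 results, 71 left the value within the spread between cells or the interval of the share. That spread is a wide limit for a median or a summed share, so staying within it does not show that a setting had no effect. The number of members detected per cell moved from 36 to 34 at 1 CPM, 32 at 5 counts, 31 at 10 CPM (added after seeing the data) and 33 without the chaperones and *Psmc3ip*. Evenness moved from 0.823 to 0.423 as 1 minus the Gini index, which is another scale. The share of cells with an immunoproteasome subunit moved from 97.8% to 76.1% at 10 CPM, 34.8% at 100 CPM (added), 87.5% over all 56 wells and 78.3% after thinning to 100000 gene counts. The rho of members detected with gene counts moved from 0.11 to 0.46 over all 56 wells. The immunoproteasome share of the catalytic subunits, 14.2% in summed counts, lay between 10.3% and 27.0% over its alternatives, all less than 1 SD of the cells' own shares. Settings that left out A2, A8, F6 and H4, F12, the plate column sets for members detected and evenness, and the merged exon length, were chosen after seeing the data. At 111195 gene counts, the lowest used, 1 count is 8.99 CPM, so in that well a reading under 10 CPM is at most 1 count.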

Other observations

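The 10 wells under 100000 gene counts entered the results above only where all 56 wells or wells below the depth limit are named. They had 357 (B6) to 96289 (D12) gene counts and a median of 31 members detected, from 5 in B6 to 34 in A6. B5, with 26952 gene counts, had 95.4% of the level of the 31 constitutive subunits in *Psma7*, and D12 had 56.0% in *Psmb3*. Both lie in plate columns 4 to 6 and 10 to 12, where no well above the depth limit had a leading subunit at 50% or more. *Psma8*, read in D3, had 1 count in D11. No immunoproteasome subunit was read in 6 of these wells, among them B5, D4 and H10.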
